A study of Rattus norvegicus with 12 samples.

Results

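The genes described here are the 4 rows of the count table on rat chromosome 19 whose most upstream exon base lies from 15 to 15.4 Mb and that have at least 10 counts summed over the 12 libraries, out of 32883 rows in all. The window holds 4 rows, so the count minimum removed 0 of them, and the lowest total among them was 49 counts. The nearest rows outside the window began at 14951616, with 270 counts in all, and at 15469303, with 7550. The members were chosen by position and total count, and the position itself was picked for the lower values seen there in smooth muscle cells with the NRF2 siRNA. The window is labelled as that of the carboxylesterase 1 (Ces1) family. Rows carry Ensembl IDs without symbols, and 0 of 32883 IDs matched the gene table used here, so no row is given a gene name. They are called the first to the fourth gene of the window, in chromosome order.

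The sequenced RNA came from cultured primary cells of the rat pulmonary artery, labelled as lung and wild type, with no age or strain stated in the labels used here. The 4 groups were pulmonary artery endothelial cells (PAEC, the cells that line the vessel) with an siRNA against NRF2 (siNRF2), PAEC with a control siRNA (siControl), pulmonary artery smooth muscle cells (PASMC, the contractile cells of the wall) with siNRF2, and PASMC with siControl, with 3 libraries each. An siRNA is a small RNA duplex that directs the breakdown of a matching mRNA. The letters in the column names were read as cell type and siRNA, which the labels do not spell out, and every direction given here depends on that reading. Gene counts summed to between 27008812 and 34317763 per library. Without symbols, neither the gene targeted by the siRNA nor cell type markers could be looked up, so neither the knockdown nor the identity of the cells was checked here.

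Carboxylesterases are serine hydrolases that cut ester bonds in drugs, other foreign compounds and neutral lipids. In rodents the Ces1 genes lie in a tandem array, their products are mostly kept in the endoplasmic reticulum or secreted into plasma, and they are best known from the liver. NRF2 is a transcription factor of the oxidative stress response that pairs with small MAF proteins and binds antioxidant response elements. RefSeq's annotation of the rat assembly GRCr8 lists 5 Ces1 genes in a row on chromosome 19, in the order Ces1f, Ces1e, Ces1d, Ces1c and Ces1a, with a non-coding RNA gene and then Slc6a2 after them. Its coordinates for them differ from those of the window, and the sources used here do not give the build of the count table, so these symbols were not paired with the 4 rows.

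Among 6 Ces1 symbols on the chromosome, Ces1dl1 lies apart from this row and was not searched. The sequences upstream of the 5 genes in the row are shown because they are promoters of the tandem array that the window is named for. Each is the 250 bases before the start used by RefSeq's promoter table (GRCr8), 5′ to 3′, and capitals mark matches to a motif searched on both strands.
Ces1f (chr19:29969383-29969632, plus strand): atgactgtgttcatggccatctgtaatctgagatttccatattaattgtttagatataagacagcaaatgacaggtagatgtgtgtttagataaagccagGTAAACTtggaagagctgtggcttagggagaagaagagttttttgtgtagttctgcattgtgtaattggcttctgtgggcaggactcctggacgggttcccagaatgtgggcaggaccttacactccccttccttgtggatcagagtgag
Ces1e (chr19:30005923-30006172, plus strand): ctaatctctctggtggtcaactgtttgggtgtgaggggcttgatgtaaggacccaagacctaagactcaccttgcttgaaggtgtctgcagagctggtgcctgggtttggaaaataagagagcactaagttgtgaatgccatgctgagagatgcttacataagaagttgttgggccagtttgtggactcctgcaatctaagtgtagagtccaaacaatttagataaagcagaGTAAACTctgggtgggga
Ces1d (chr19:30046244-30046493, plus strand): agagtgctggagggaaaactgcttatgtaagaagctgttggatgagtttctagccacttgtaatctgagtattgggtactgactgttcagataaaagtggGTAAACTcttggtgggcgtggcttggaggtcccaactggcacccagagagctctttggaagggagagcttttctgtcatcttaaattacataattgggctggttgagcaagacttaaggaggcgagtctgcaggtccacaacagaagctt
Ces1c (chr19:30099197-30099446, plus strand): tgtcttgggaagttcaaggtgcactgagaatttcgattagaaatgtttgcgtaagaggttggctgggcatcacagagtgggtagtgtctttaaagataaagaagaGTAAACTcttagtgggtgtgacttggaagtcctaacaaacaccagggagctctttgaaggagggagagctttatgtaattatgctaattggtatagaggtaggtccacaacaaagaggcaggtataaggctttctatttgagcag
Ces1a (chr19:30132428-30132677, plus strand): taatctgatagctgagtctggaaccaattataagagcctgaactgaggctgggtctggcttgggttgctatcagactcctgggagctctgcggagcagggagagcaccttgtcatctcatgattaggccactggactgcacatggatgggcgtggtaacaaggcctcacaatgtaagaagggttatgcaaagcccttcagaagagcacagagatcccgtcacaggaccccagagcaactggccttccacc
The core of the antioxidant response element, TGACNNNGC, was found in 0 of the 5 windows, against 10.1% of 33469 promoters of the same length. The AP-1 site TGANTCA, whose letters can overlap that core, was also found in 0 of the 5, against 6.34% of all. The letters GTAAACT, chosen after the 5 sequences had been compared, stood in 4 of the 5 and in 1.85% of all promoters. Its first base was at -150 in Ces1f, -18 in Ces1e, -150 in Ces1d and -145 in Ces1c, counted back from the start. A match is a description of letters and not of binding, and no match says only that the letters are not in this window.

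The exon models show what the rows have in common. The first gene, ENSRNOG00000015519 (chromosome 19, 15033108 to 15239821, plus strand), has 20 merged exons with 2227 exon bases, and an intron of 162379 bases follows its first exon. The second gene (15081158 to 15335002, plus strand) has 58 merged exons with 6489 exon bases, in groups separated by a gap of 101245 bases. The third gene, ENSRNOG00000039725 (15339152 to 15366079, plus strand), is compact, with 14 exons and 1896 exon bases. The fourth gene (15391581 to 15431274) lies on the minus strand and has 15 merged exons with 5600 exon bases. The spans of the first and the second gene overlap over 158664 bases, and 45 of the 58 exons of the second lie inside the span of the first, yet 0 exon bases are shared between any of the 4 rows and any other row of the table.

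**Figure D1:**
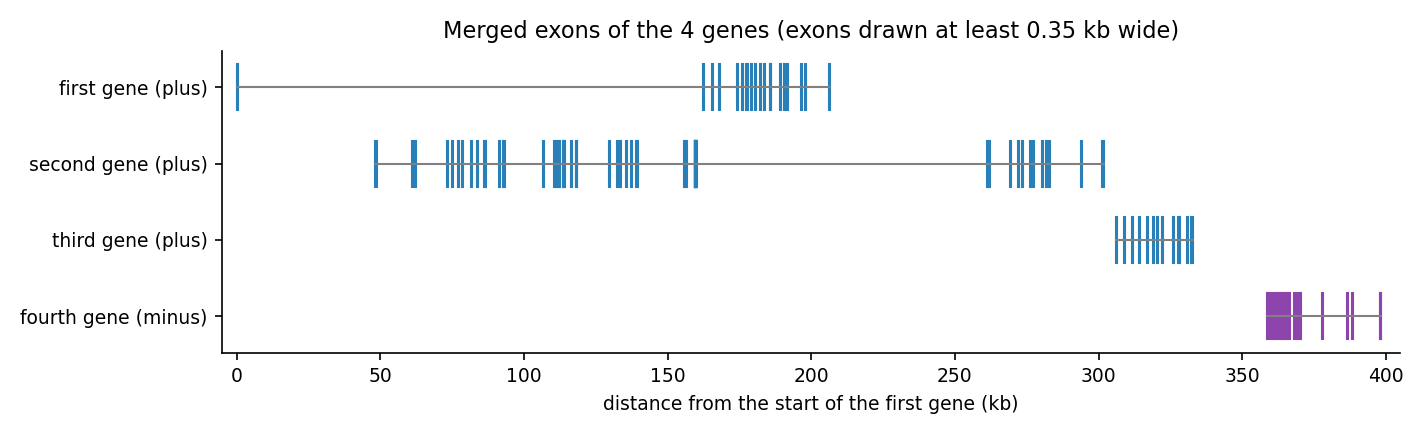
Merged exons (blocks) and spans (lines) of the 4 genes, with the distance in kb from the start of the first gene on the horizontal axis, plus-strand genes in blue and the minus-strand gene in purple. The exons of the second gene lie on either side of the main exon group of the first, and their spans overlap over 158664 bases, while the third and the fourth gene do not overlap them.

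The lengths of the exons repeat between the plus-strand genes. From its first to its last exon the third gene has exons of 52, 205, 145, 134, 154, 105, 105, 39, 141, 81, 148, 132, 73 and 382 bases. The second gene holds 12 consecutive exons, its exons 3 to 14, that match exons 2 to 13 of the third gene to within 1 base, and further stretches of 6, 6 and 5 consecutive exons that match parts of the same order. The row thus lists this exon order more than once, and its counts are a sum over all of these exons. The first gene matches the third over 5 consecutive exons, its exons 15 to 19, and its exons 2 to 6, of 52, 205, 143, 134 and 154 bases, differ from exons 1 to 5 of the third gene in a single length. Among the 14388 rows of the table with at least 5 merged exons, 4 held a run of 5 or more exons in this order, the third gene itself included. The remaining row lies on the same chromosome at 37090056 to 37107872 and is listed at 0 counts in all 12 libraries. The longest run in the fourth gene was 1 exon. The first 3 genes thus share runs of exon lengths, for the first gene only over part of the order, and the fourth has no such run. No row was matched to a Ces1 gene.

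**Figure D2:**
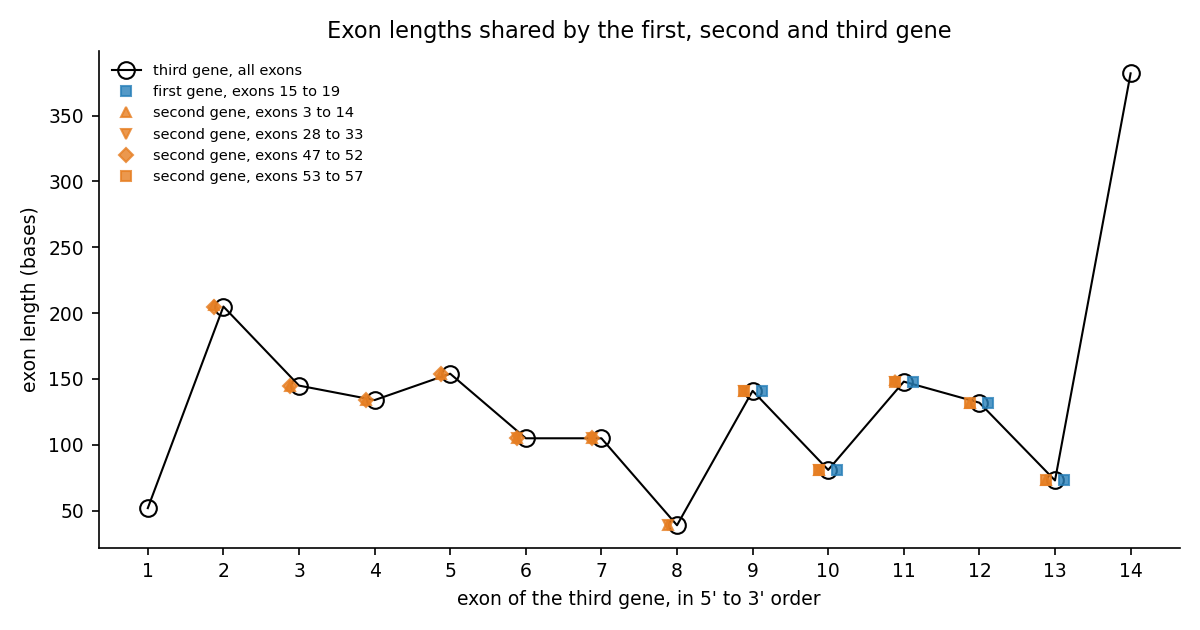
Exon length in bases (vertical axis) against the exon number of the third gene (horizontal axis), with the third gene as open circles and the matching runs of the first gene (blue) and second gene (orange) beside them. The runs of 5 exons in the first gene and of 12, 6, 6 and 5 exons in the second fall on the lengths of the third to within 1 base.

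Levels of the genes were compared per length, as CPM, counts scaled for library size with TMM, per kb of exon. In PAEC the first gene was at 2.63 ± 1.60 CPM per kb with siNRF2 and 9.80 ± 0.805 with siControl (mean ± SD, n = 3 each), and the third gene at 2.55 ± 0.615 CPM per kb with siNRF2 and 9.32 ± 1.13 with siControl. The ranges of these genes overlapped under either siRNA. Within single libraries, the ratio of the first to the third gene per kb was 1.01, 1.12 and 1.03 with siControl. With siNRF2 it was 0.678, 1.36 and 0.879. Their order in PAEC was not tested and is not settled. The second gene was below both without overlap, at 0.610 ± 0.165 CPM per kb with siNRF2 and 0.429 ± 0.113 with siControl. Its value is divided by all 6489 exon bases of a row that lists the exon order more than once. Its place in this order therefore depends on that exon model. In PASMC the third gene was at 1.07 ± 0.462 CPM per kb with siNRF2 and 2.79 ± 0.407 with siControl. It stood above the first gene, at 0.250 ± 0.0562 CPM per kb with siNRF2 and 1.03 ± 0.0900 with siControl, without overlap under either siRNA. In PASMC the second and the fourth gene overlapped under either siRNA, both close to 0.

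The question of the main comparison was which of these genes change when NRF2 is targeted, and it was tested in PAEC, whose libraries are not those in which the window had stood out. In PAEC the first and the third gene were lower with siNRF2, and the second, which shares the longest run of exon lengths with the third, was not shown to change. Of the 4 genes, 3 passed the filter on low counts, and 2 of these fell and 0 rose (edgeR quasi-likelihood test, Benjamini-Hochberg adjusted over all 14584 genes tested, threshold 0.05). Of all genes tested 24.7% were called, 13.2% lower and 11.5% higher. The median log2 fold change of the 3 genes was -1.87, beside 0 for all genes tested.

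The first gene was at 3.23, 9.90 and 4.42 CPM in PAEC with siNRF2, against 21.4, 20.2 and 23.8 CPM with siControl. All 3 siNRF2 libraries lay below all siControl libraries, and replicate 2 was the highest of them. Its log2 fold change was -1.90 ± 0.30 (SE, with an edgeR adjusted p of 0.00015), a level 3.73-fold lower, which ranked 315 from the lowest among the 14584 genes. Without siNRF2 replicate 2 the log2 fold change was -2.52 ± 0.24 (SE, with an edgeR adjusted p of 7.4e-07), so the size of the fall, though not its call, depended on that library.

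The third gene gave a similar value. It was at 4.06, 6.18 and 4.28 CPM in PAEC with siNRF2, against 18.1, 15.3 and 19.6 CPM with siControl. The groups did not overlap, and siNRF2 replicate 2 was again the highest siNRF2 library. Its log2 fold change was -1.87 ± 0.26 (SE, with an edgeR adjusted p of 3.3e-05), a level 3.65-fold lower and rank 325 from the lowest. Groups that do not overlap were common in this comparison, at 36.6% of all genes tested, with siNRF2 below siControl for 18.8%.

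The second gene did not follow them in PAEC. It was at 3.04, 5.14 and 3.70 CPM with siNRF2, against 3.25, 3.17 and 1.93 CPM with siControl. The groups overlapped, with replicate 2 highest among the siNRF2 libraries here too. Its log2 fold change was 0.51 ± 0.43 (SE, with an edgeR adjusted p of 0.43), so it was not called. In counts, the second gene stood at 0.519 to 0.942 of the first gene in the siNRF2 libraries, against 0.0813 to 0.156 in the siControl libraries. The log2 of this ratio differed by 2.58 between the groups (two-sided exact permutation test, p = 0.10, adjusted p = 0.15 over 3 ratios, n = 3 per group, where 0.10 is the smallest p this design can give). Against the third gene the ratio was 0.750 to 0.863 with siNRF2 and 0.0987 to 0.206 with siControl, a log2 difference of 2.40 with the same exact permutation p of 0.10. The log2 ratio of the first to the third gene averaged 0.13 ± 0.51 with siNRF2 and 0.31 ± 0.080 with siControl (SD, n = 3 each), and the groups overlapped (exact permutation p = 0.70). Within PAEC the proportion of the second gene to either of the others was higher in every siNRF2 library than in any siControl library. This largely follows from the falls of the first and the third gene and is not a separate result. The ratio tests were not among the comparisons set by the design, and the share of gene pairs with such a separation was not computed. The higher proportion did not hold in PASMC, where the second gene had few counts. There its ratio to the first was 0, 0.083 and 0.125 with siNRF2, against 0.269, 0.123 and 0.099 with siControl. In bulk RNA, a smaller number of cells expressing a gene and less of its RNA in each cell cannot be told apart.

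**Figure D3:**
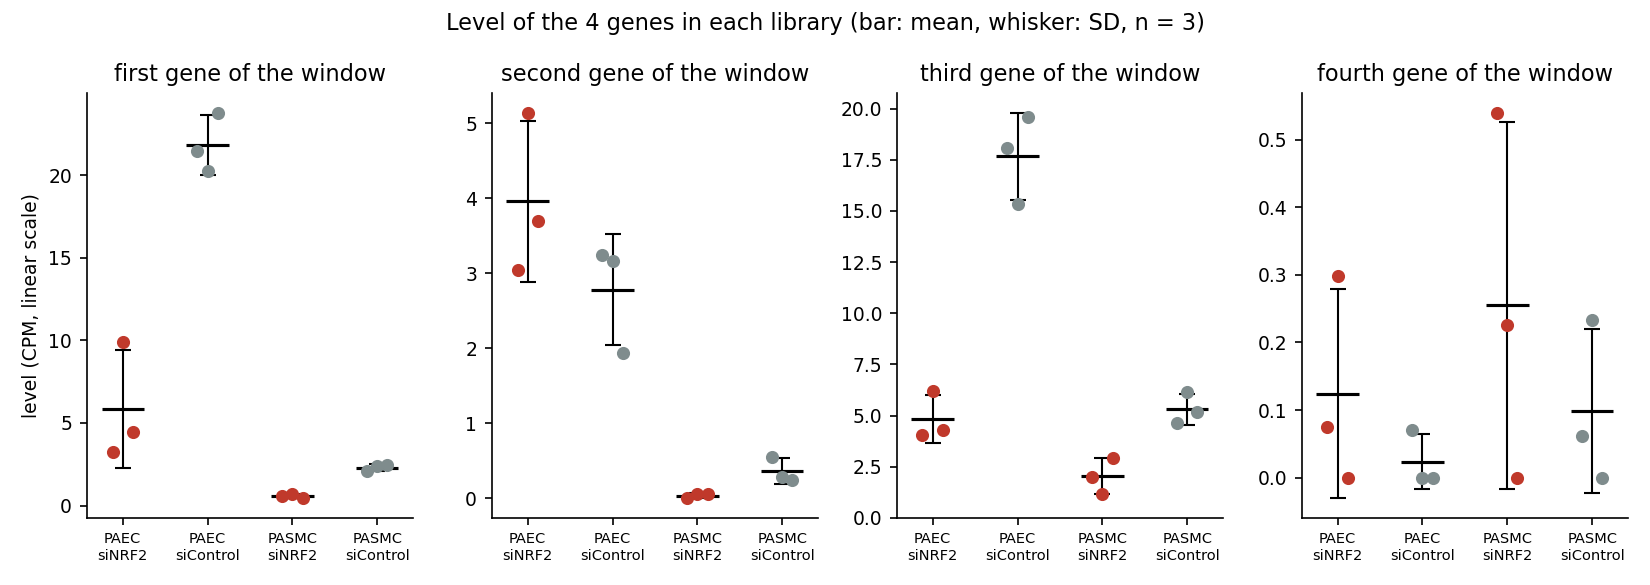
Level of each gene in CPM (linear scale, 1 panel per gene with its own range) in every library of PAEC siNRF2, PAEC siControl, PASMC siNRF2 and PASMC siControl, with the mean as a bar and the SD as whiskers (n = 3), siNRF2 in red and siControl in grey. The first and the third gene lie lower with siNRF2 than with siControl in PAEC, the second overlaps there, and the fourth is close to 0 throughout.

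**Figure D4:**
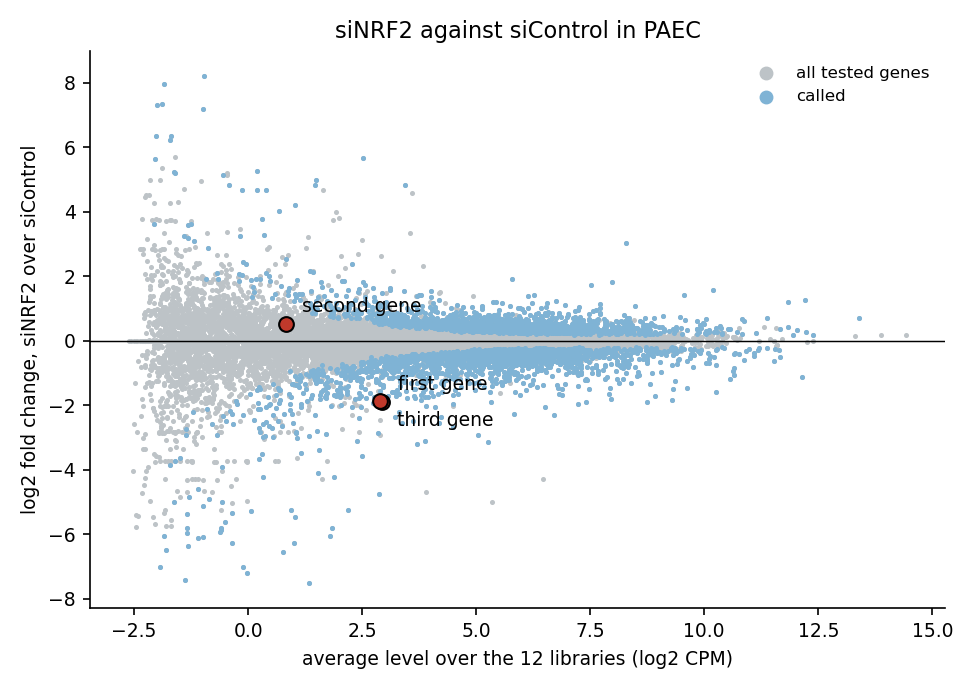
Log2 fold change of siNRF2 over siControl in PAEC (vertical axis) against the average level in log2 CPM (horizontal axis) for the 14584 genes tested, with called genes in blue and the 3 tested genes of the window in red. The first and the third gene lie side by side at -1.90 and -1.87, and the second lies at 0.51 among genes that were not called.

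The fourth gene had 49 counts over the 12 libraries and was not tested. Its counts were 2, 8 and 0 in PAEC with siNRF2 and 2, 0 and 0 with siControl, and 19, 8 and 0 in PASMC with siNRF2 and 2, 8 and 0 with siControl. Replicate 3 of every group had no count, the groups overlapped in both cell types, and no difference was detectable at this depth.

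In PASMC the same comparison is given without a test, since the window had been noticed through it. Here the first, second and the third gene were all lower with siNRF2. The first gene was at 0.568, 0.676 and 0.426 CPM in PASMC with siNRF2, against 2.07, 2.37 and 2.46 CPM with siControl, a log2 change of -2.04 (SE 0.35). The third gene was at 1.99, 1.18 and 2.93 CPM with siNRF2, against 4.61, 6.13 and 5.16 CPM with siControl, a log2 change of -1.38 (SE 0.27). The groups did not overlap for either gene. The second gene had 0, 2 and 2 counts with siNRF2, against 18, 10 and 10 counts with siControl, and also did not overlap. Its summed counts were 4 with siNRF2 and 38 with siControl. Of all genes tested in PASMC 46.2% had groups that do not overlap, 22.1% with siNRF2 below siControl, and nothing is read from this for genes that were chosen by it. The second gene reached the filter on low counts through PAEC, as 0 siNRF2 and 2 siControl libraries of PASMC met its minimum. Of all genes tested in PASMC 30.7% were called, 14.6% lower and 16.1% higher (edgeR, adjusted p under 0.05). Side by side, the log2 fold changes in PAEC and in PASMC were -1.90 and -2.04 for the first gene, 0.51 and -3.16 for the second and -1.87 and -1.38 for the third. Whether these effects differ between the cell types was not tested, because the PASMC values chose the window.

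The cell types were then compared with each other. The comparison with siNRF2 uses the PASMC libraries whose low values chose the window, which favours PAEC above PASMC, so it is given as values with no test. The comparison with siControl uses the PASMC siControl libraries, the high side of that choice, and was tested. A choice of high values there works against PAEC above PASMC. These libraries are still not independent of the choice, so the p-values are to be read with that limit. With siControl the first and the third gene were higher in PAEC than in PASMC. The second gene met the filter's minimum in all 3 libraries of a group only in PAEC. This favours a difference between the cell types, so the second gene is not counted. Of all genes tested 56% were called with siControl, 27.7% higher and 28.3% lower in PAEC, and with siNRF2 55.8% were called, 27.6% higher and 28.1% lower (edgeR, adjusted p under 0.05). The split depended on the scaling. With siNRF2, 4029 genes were higher in PAEC and 4103 lower under TMM, against 1975 higher and 7474 lower with library totals, under which the median over all genes shifted by -0.44 on the log2 scale. With siControl the numbers were 4046 higher and 4123 lower under TMM, against 2125 and 7488 with library totals.

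With siNRF2 the first gene averaged 5.85 ± 3.56 CPM in PAEC and 0.557 ± 0.125 CPM in PASMC (SD, n = 3 each), a log2 difference of 3.39, or 2.77 without PAEC siNRF2 replicate 2. With siControl it averaged 21.8 ± 1.79 CPM in PAEC and 2.30 ± 0.200 CPM in PASMC, a log2 difference of 3.24 ± 0.32 (SE, with an edgeR adjusted p of 1.04e-07). For the third gene the averages with siNRF2 were 4.84 ± 1.17 CPM in PAEC and 2.03 ± 0.875 CPM in PASMC, a log2 difference of 1.25. With siControl they were 17.7 ± 2.15 CPM in PAEC and 5.30 ± 0.771 CPM in PASMC, a log2 difference of 1.74 ± 0.26 (SE, with an edgeR adjusted p of 1.19e-05). PAEC lay above PASMC without overlap for both genes under either siRNA. Groups that do not overlap were the common case between the cell types, at 64.9% of all genes tested with siNRF2 and 60.2% with siControl, with PAEC above PASMC for 31.8% with siNRF2 and 29.4% with siControl. The PAEC siNRF2 libraries of the third gene, at 4.06 to 6.18 CPM, overlapped with its PASMC siControl libraries, at 4.61 to 6.13 CPM. The second gene had 326 summed counts in PAEC and 4 in PASMC with siNRF2, and 230 in PAEC and 38 in PASMC with siControl.

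Neighbouring genes on either side were used to see whether the change extended beyond the window. Of the 27 rows that begin within 1 Mb of it, 9 were tested. In PAEC 2 of these were higher and 0 lower with siNRF2 (edgeR, adjusted p under 0.05), beside 11.5% higher and 13.2% lower of all genes tested. The 9 had a median log2 fold change of 0.16 and a range from -0.76 to 0.72. The nearest tested gene downstream, at 15469303 to 15540773 on the minus strand, averaged 31.5 CPM in PAEC with siNRF2 and 20.1 CPM with siControl, a log2 change of 0.65 ± 0.13 (SE, with an edgeR adjusted p of 0.00094). The nearest upstream, at 14951616 to 14953755, had 0.72 ± 0.73 (SE, with an edgeR adjusted p of 0.53). The log2 fold changes of the first and the third gene in PAEC lay below those of all 9 flanking genes. In PASMC 3 of the 9 were higher and 0 lower, with a median of 0.043 and a range from -1.40 to 1.81. Of all genes tested there 16.1% were called higher and 14.6% lower. The lowest flanking value in PASMC was that of the nearest upstream gene, -1.40 ± 0.73 (SE, with an edgeR adjusted p of 0.17). This neighbour averaged only 0.369 CPM with siNRF2 and 0.974 CPM with siControl in PASMC, and its value lay beside the -1.38 of the third gene. The first and the second gene, at -2.04 and -3.16, lay below all 9 flanking genes there. Nothing is read from this, since the PASMC values chose the window.

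**Figure D5:**
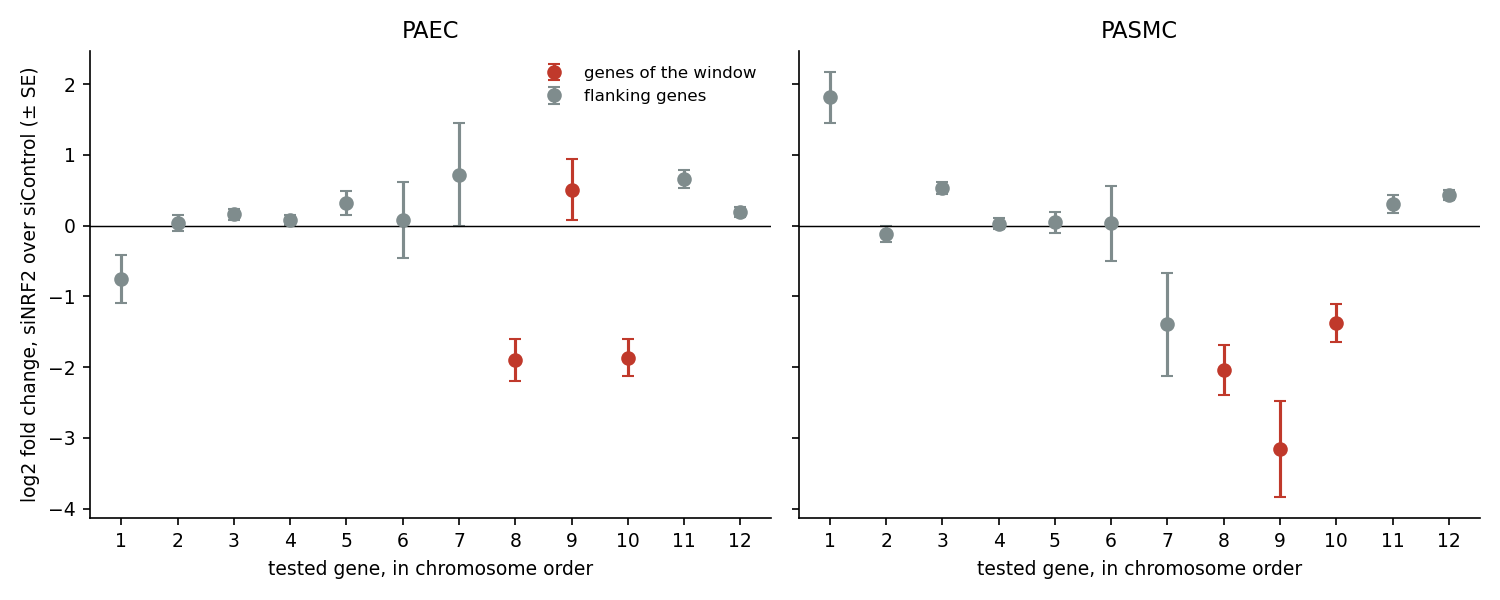
Log2 fold change of siNRF2 over siControl with its SE (vertical axis) for the 12 tested genes of the window and of 1 Mb on either side, in chromosome order (horizontal axis), in PAEC (left) and PASMC (right), with genes of the window in red and flanking genes in grey. In PAEC the first and the third gene of the window lie below every flanking gene and the second does not.

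Across the 12 libraries, log2 CPM of the first and the third gene had a Pearson correlation of 0.92, and of 0.97 within the 6 PAEC and 0.80 within the 6 PASMC libraries. Between the first and the second gene it was 0.86 over the 12 libraries, -0.37 within PAEC and 0.88 within PASMC, and between the second and the third 0.69, -0.54 and 0.77. The libraries fall into 2 cell types and 2 siRNAs, so the points are not independent and the values are given as a description. Of all other genes tested, 165 were more alike to the first gene than the third gene was. Likeness to genes outside the window was measured against the first gene, which has the highest mean CPM of the 4 over the 12 libraries, not divided by length, although by summed counts the third leads with 2657 against 2598. The 3 genes most like it lay on chromosome 16 (10878334 to 10941501, minus strand), chromosome 3 (109862117 to 109873466, plus strand) and chromosome 1 (178636544 to 178935051, plus strand), with correlations of 0.98, 0.98 and 0.97 over the 12 libraries. Their log2 fold changes in PAEC were -0.73, -0.58 and -0.83. They were picked by correlation over libraries that include those of this comparison. A fall in PAEC was thus favoured by the choice, and nothing is read from it.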

How the data were processed

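The authors deposited raw read counts for each gene in each library, together with exon positions and gene lengths. The submitters' processing notes name featureCounts 2.0.3, HISAT2 2.0.5 and DESeq2 1.32.0, without roles. Settings, genome build, strand use and the handling of reads with several matches are not stated there, so the division of reads between near-identical copies is unknown. Of the counts from 1 to 10 in the table, 63.5% were even, so single counts may not be independent. The labels' protocols name Trizol and a directional kit. The design text calls the 3 libraries of a group biological replicates without naming animals or cultures, so p-values measure the spread between these libraries.

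Sample titles gave the groups, as the cell type field says PASMC for every sample. Genes were kept by filterByExpr on the 4 groups (14584 of 32883), scaled by TMM and fitted over all 12 libraries with 1 coefficient per group (edgeR 4.0.16, glmQLFit with robust estimation and glmQLFTest, R 4.3.3), after tests on simulated data. Genes were called at an adjusted p under 0.05. SEs were derived from the F statistics, and log2 CPM used a prior count of 2. Overlapping exon entries of a gene were merged before exon lengths were compared, with a tolerance of 1 base. Promoters are RefSeq's for GRCr8, where 0 of the 4 genes matched by ID.

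The genes, lists and comparisons were chosen with earlier results of these data known. The rule for named genes takes every gene of the window, the genes that begin within 1 Mb of it, and the 3 genes outside it most correlated with the one of highest mean CPM, not divided by length. The design set a test for PAEC against PASMC with siNRF2, but no p of it is given for the 4 genes because its PASMC libraries chose the window. IDs are printed for 2 genes and positions for the others. Lists of carboxylesterases, lipid handling genes, xenobiotic enzymes and cell type markers set by symbol were not run. Alternatives were DESeq2 size factors (DESeq2 1.42.0), library totals, no filter, the DESeq2 Wald test, limma voom (limma 3.58.1), only the 6 libraries compared, the replicate number as a block, and each library left out in turn. No library was treated as a duplicate, since the chi-square per gene between replicates was at least 9.11.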

Additional observations from a re-analysis of the deposited data

How the results depend on the processing

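Under the 19 alternatives the number of genes of the window called stayed at 2 for siNRF2 against siControl in PAEC, the first and the third. With siControl, the first and the third gene were called higher in PAEC than in PASMC under each of the 19, with log2 differences of 2.81 to 3.29 and 1.30 to 1.85. The PASMC siControl libraries of this comparison had a part in the choice of the window, on its high side. Values that the choice of the window or the filter fixes or favours are not counted as stable. In PAEC the log2 fold change ranged from -2.52 to -1.63 for the first gene (highest adjusted p 0.020, edgeR with only the 6 PAEC libraries), from -2.09 to -1.77 for the third (highest adjusted p 0.00038) and from 0.27 to 0.65 for the second (lowest adjusted p 0.24). The second gene did not pass the filter with only the 6 PASMC libraries in the fit, so that fit gives no value for it there. The number of all genes called in PAEC ranged from 2721 to 4031.

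The replicate numbers gave no sign of pairing between the samples. Correlations of same-numbered libraries' deviations from their group means lay between -0.075 and 0.021 over 12 pairs. Of the 12, 1 correlated best with its own number. These values cannot show whether same-numbered libraries were prepared together. With the replicate number as a block, 3427 genes were called in PAEC for siNRF2 against siControl, 4350 in PASMC, 8005 for PAEC against PASMC with siControl and 7983 with siNRF2, and in PAEC 2 genes of the window were again called.

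Depth limits the second gene in PASMC, with 4 counts in the siNRF2 group, and the fourth gene in all groups.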
